A study of Mus musculus with 6 samples.

Results

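The 41 genes described here are imprinted mouse genes that lie outside the Prader-Willi, Dlk1-Dio3 and Igf2-Cdkn1c clusters. They were chosen by name, and each was found by its Ensembl identifier among the 49671 genes of a table of read counts. They belong to 19 loci on 11 chromosomes. Of these genes, 15 are known as paternally expressed and 11 have been reported as maternally expressed mainly in the placenta or yolk sac.

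An imprinted gene is transcribed mainly from the copy inherited from one parent. The choice is set in the germ line by DNA methylation at control regions, and zinc finger proteins such as ZFP57 and ZFP445, together with TRIM28 and DNMT1, keep that methylation through cell division. Many imprinted genes act on growth, placental function and brain development, and in the brain and other tissues the imprint of a given gene can be present, relaxed or absent. Counts per gene add both parental copies together, so the values below give total transcript level and not allelic expression.

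RNA-seq had been carried out on neurospheres, free-floating cultures grown from neural stem cells (NSCs) of the adult subventricular zone. The 3 libraries labelled control are given as Tet3-Gfap control mice (Tet3 loxp/loxp-Gfap-cre 0/0) and the 3 labelled cre as Tet3-Gfap cre mice (Tet3 loxp/loxp-Gfap-cre +/0), in which cre recombinase removes exon 5 of *Tet3*. Both groups carried the floxed *Tet3* alleles on a C57BL6 background and differed in a GFAP-cre transgene, which is driven by a *Gfap* promoter cassette and therefore deletes *Tet3* in cells that express GFAP and in their descendants. Mice were 2 to 4 months old, and each independent culture pooled 2 animals. TET3 is a dioxygenase that oxidizes 5-methylcytosine, so the comparison asks whether imprinted genes are transcribed at another level in NSCs that lost *Tet3*. Whether the 3 libraries of a group came from separate cultures was not stated, so the p-values measure only the spread between these libraries.

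The library labels were checked first, because they decide every comparison. Scaled to counts-per-million (CPM), *Tet3* reached 114 in control 1, 136 in control 2 and only 60.3 in the library labelled control 3. It stood at 61.3 in cre 1, 60.5 in cre 2 and 116 in the library labelled cre 3. Libraries of replicate 3 thus carried the *Tet3* level of the opposite label. *Gfap*, which encodes an intermediate filament of astrocytes and adult NSCs, crossed in the same way, with 6.62 CPM in the library labelled control 3 against at most 0.503 CPM in control 1 and 2, and 0.28 CPM in the library labelled cre 3 against at least 3.52 CPM in cre 1 and 2. Other astrocyte genes did not all cross. *Slc1a2* was at 69.9 to 150 CPM in the control libraries and at 184 to 233 CPM in the cre libraries. *Aldoc* was at 221 and 240 CPM in control 1 and 2 and at 471 CPM in the library labelled control 3. In the library labelled cre 3 *Aldoc* was at 333 CPM, beside 334 and 392 CPM in cre 1 and 2. Counts cover the whole *Tet3* gene, so they do not read the deleted exon itself. Each comparison is therefore given by the labels, with all 6 libraries, and again in the 4 libraries left when those labelled control 3 and cre 3 are taken out.

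Depth was similar across libraries, from 29660398 to 35405326 counts. The 10 neural stem cell markers summed to between 7970 and 9450 CPM. Oligodendrocyte lineage markers summed to 2580 to 3230 CPM and those of neuroblasts and neurons to 1160 to 1580 CPM. The 4 ependymal markers summed to 16.1 to 23.7 CPM, mostly *Foxj1*, with no count of *Tmem212*. Sums were at most 1.13 CPM for microglia, 0.41 CPM for choroid plexus, with no count of *Folr1*, and 1.95 CPM for endothelium. The 8 mesenchymal and mural markers summed to between 1.33 and 6.59 CPM in 5 libraries and to 25.3 CPM in cre 1. The 6 astrocyte markers summed to 496 and 530 CPM in control 1 and 2 and to 681 to 833 CPM in the other 4 libraries. *Aldoc* and *Slc1a2* were lowest in control 1 and 2, as the sum was. *Gja1* was highest in control 1 (185 CPM) and *Aqp4* lowest in cre 1 (1.13 CPM). *S100b* and *Gfap* were lowest in the library labelled cre 3 (12.4 and 0.28 CPM). In such bulk samples, fewer cells of a type and less RNA per cell cannot be told apart.

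The genes spanned a wide range of levels in these NSCs. Levels are compared between genes as CPM per kilobase of exon, averaged over the 6 libraries. *Mest*, a paternally expressed gene for a hydrolase-fold protein, led with 226, followed by *Nnat* (neuronatin, a small membrane protein) with 152 and *Gatm* (the first enzyme of creatine synthesis) with 119. *Nap1l5*, of the nucleosome assembly protein family, reached 59.4 and *Peg10*, a gene derived from a retrotransposon, 49.0. Of these 5 genes, all but *Gatm* are known as paternally expressed. The next were *Blcap* at 18.4, *Copg2* (a subunit of the COPI vesicle coat) at 18.2, *Pon2* (a lactonase of the paraoxonase family) at 15.9, *Mcts2* at 15.5 and *Inpp5f* (an inositol phosphatase) at 13.9. *Nap1l5* and *Peg10* overlapped across libraries, with *Peg10* the higher in control 1 (77.0 against 51.6). The 5 genes from *Blcap* to *Inpp5f* also overlapped with their neighbours, so these orders are within the spread.

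**Figure D1:**
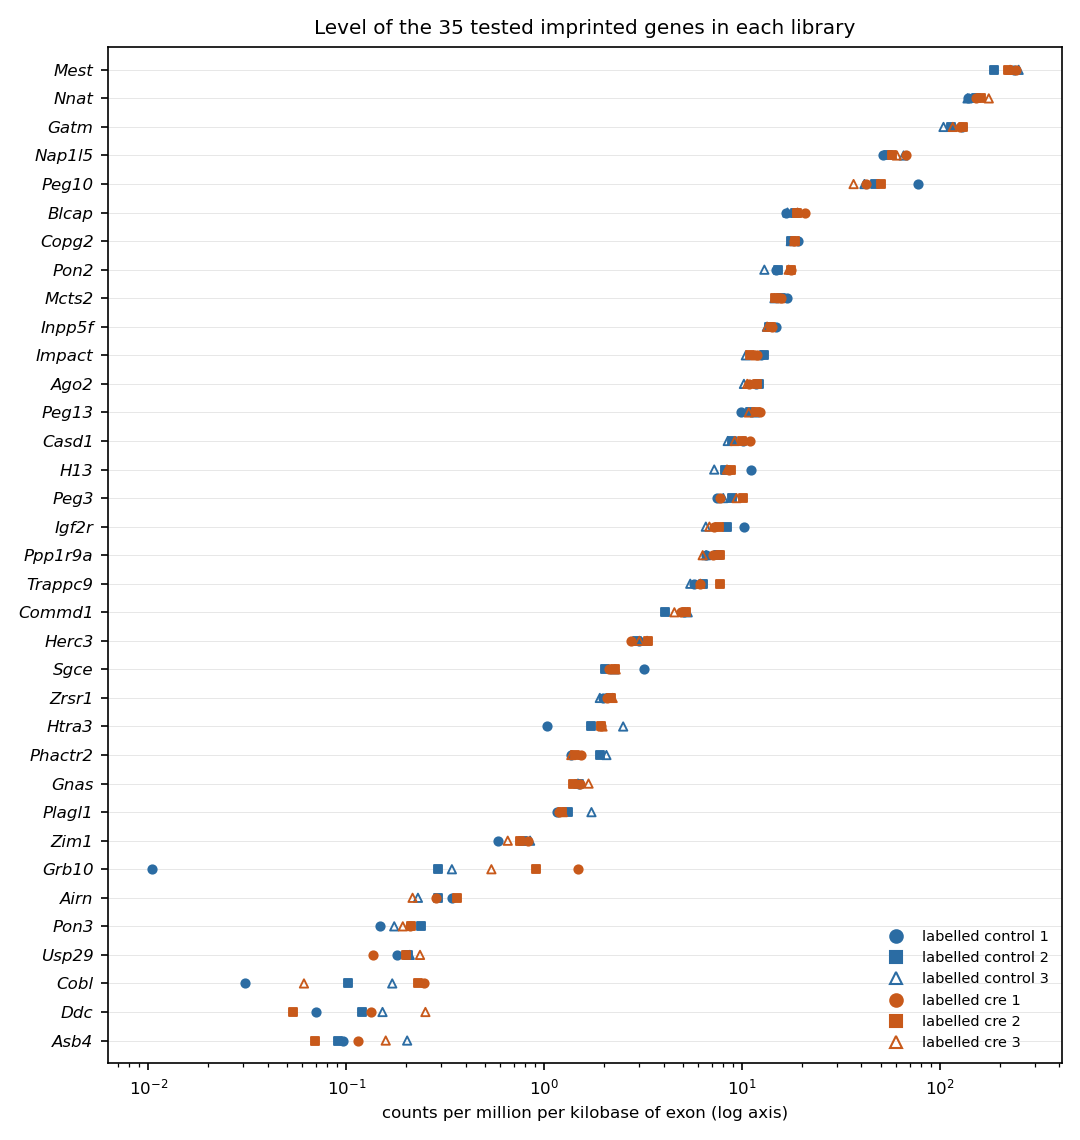
Level of the 35 tested imprinted genes in CPM per kilobase of exon (log axis), 1 point per library, sorted by mean. The 6 points of most genes lie close together, from *Mest* (226 on average) down to *Asb4* (0.122), while those of *Grb10*, *Cobl*, *Ddc* and *Asb4* spread most widely.

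At the other end, 6 of the 41 genes were too low to be tested: *Klf14*, *Tfpi2*, *Slc22a3*, *Dcn*, *Rasgrf1* and *Zdbf2*. *Tfpi2*, a protease inhibitor reported as imprinted in placenta, had no count in any library, which allows at most 0.101 CPM in the shallowest one by a limit of 3 counts that covers counting error only. *Rasgrf1*, which activates Ras in neurons, had 3 counts in all 6 libraries together, *Zdbf2* 4 counts, *Klf14* 2 counts and *Slc22a3*, a transporter of organic cations, 9 counts. Among the tested genes *Asb4*, *Ddc*, *Cobl*, *Usp29*, *Pon3* and *Airn* had the lowest levels per kilobase, between 0.122 and 0.286.

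Some rows may mix transcripts. *Mest* and *Copg2* run toward each other on chromosome 6 and share 23.1% and 17.8% of their exon bases on opposite strands. *Gnas*, which encodes the stimulatory G protein alpha subunit, was at 15.6 to 18.7 CPM and shares 22% of its exon bases with *Nespas* and *Gm20721*. *Mcts2* and *Zrsr1* are intronless retrocopies of *Mcts1* and *Zrsr2*, so reads could have been split between copies. *Mcts2* and *Peg13* also lie within *H13* and *Trappc9* on the same strand, so reads of unspliced host RNA could have been counted for them. Whether the counting used strand, and how it treated multiply mapped reads, was not stated, so the levels of these genes are uncertain.

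None of the 35 tested imprinted genes passed the main test, edgeR's quasi-likelihood test, in either comparison. With all 6 libraries, it called 0 of the 35 tested genes at an adjusted p under 0.05, beside 0 of all 16916 genes (0%). An unadjusted p under 0.05 was reached by 4 of the 35, *Pon2*, *Grb10*, *Nnat* and *Blcap*, and by 5.0% of all genes. In those same 4 genes the control and cre libraries did not overlap, against 9.47% of all genes. All 4 were higher under the cre labels. Among all genes with an unadjusted p under 0.05, 450 were higher and 396 lower. DESeq2, the exact test and the likelihood-ratio test also called 0 of the 35, while they called 70, 68 and 51 genes of the whole table (0.414%, 0.402% and 0.301%).

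In the 4 libraries the same test called 78 of 17003 genes (0.459%), 36 higher and 42 lower in cre, and 0 of the 35 imprinted genes. Here 5 of the 35 reached an unadjusted p under 0.05 beside 11.2% of all genes: *Pon2*, *Grb10*, *Cobl* and *Peg13* higher and *Igf2r* lower in cre. Among all genes with such a p, 1040 were higher and 870 lower in cre. The groups did not overlap in 10 of the 35 (28.6%), beside 40.6% of all genes. DESeq2 called 476 genes (2.80%) and again 0 of the 35. edgeR's exact test called 638 genes (3.75%) with *Grb10* and *Cobl* among them, and its likelihood-ratio test called 622 (3.66%) with *Cobl* among them. Without a filter on low counts the quasi-likelihood test called 1325 genes (4.77%), 5 of the 40 imprinted genes then tested among them. Left without control 2 it called 246 genes (1.38%), with *Grb10* among them, and without cre 2 it called 297 (1.65%), with *Dcn* among them.

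The fold changes were small for most of these genes. The median log2 fold change of the 35 was 0.03 by the labels and 0.04 in the 4 libraries. Over all genes tested it was -0.005 and -0.001. In each comparison 21 of the 35 lay above 0, beside 8182 of 16916 genes by the labels and 8472 of 17003 in the 4 libraries. In 33 of the 35 the log2 fold change was within 0.5 of 0 in each comparison. The exceptions were *Grb10* and *Cobl*, neighbours on chromosome 11.

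**Figure D2:**
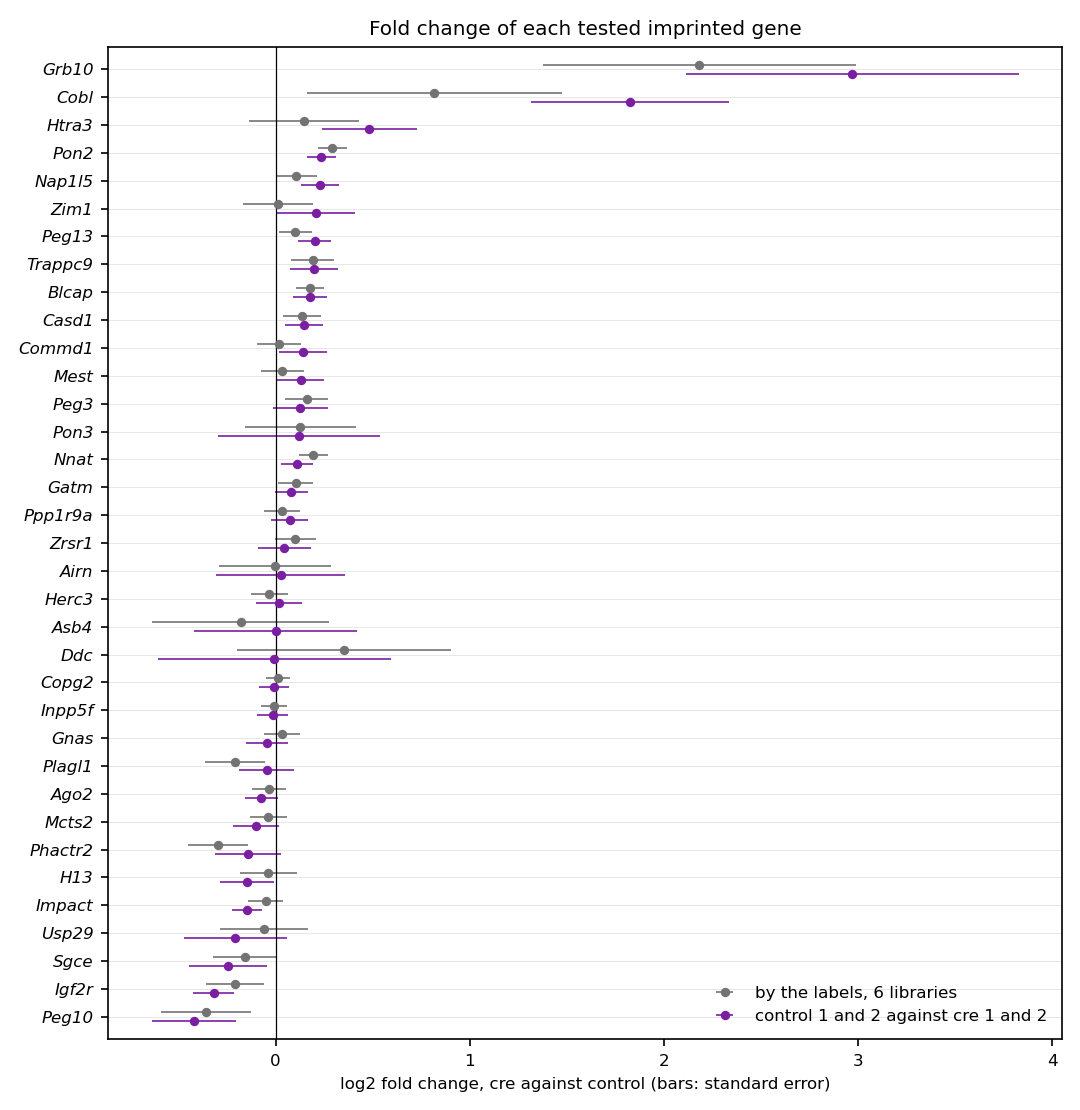
Log2 fold change of each of the 35 tested genes, cre against control, with its standard error: grey by the labels (6 libraries), purple in the 4 libraries. All but *Grb10* and *Cobl* lie within 0.5 of 0 in both comparisons, and *Peg10* is lowest at -0.36 and -0.42, values that were -0.04 and -0.02 without control 1.

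The *Grb10* locus held the widest fold differences, at low levels. *Grb10* (chromosome 11, 11930508 to 12038683, minus strand) encodes an adaptor that dampens signalling by the insulin and IGF1 receptors, and is expressed from the maternal copy in most tissues and from the paternal copy in neurons. It was at 0.0942, 2.64 and 3.10 CPM in control 1, 2 and 3, and at 13.5, 8.23 and 4.91 CPM in cre 1, 2 and 3. The cre libraries lay above the control libraries without overlap, and control 1, with 3 counts, stood far below all others. As a share of total counts, control 1 had an exact 95% Clopper-Pearson interval of 0.0193 to 0.274 CPM and control 2 one of 2.12 to 3.25 CPM. These intervals cover counting error only and do not test the difference between cultures. The log2 fold change of *Grb10* was 2.18 (standard error, SE, 0.81) by the labels, with an adjusted p of 0.972. In the 4 libraries it was 2.97 (SE 0.86), with an adjusted p of 0.245. Without control 1 it was 2.04 (adjusted p = 0.0826), and without control 2 it was 6.79 (adjusted p = 0.0136), so that the call rests on which control library is kept.

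The mesenchymal and mural markers were also highest in cre 1, where *Grb10* was highest, and 7 of the 8 had their highest value there, all but *Acta2*. Their summed level was 2.39 to 4.34 CPM in the control libraries and 1.33 to 25.3 CPM in the cre libraries, and *Col1a2*, *Postn* and *Lum* had no count in cre 2. *Grb10* was at 8.23 CPM in cre 2, where those markers summed to 1.33 CPM, the lowest of the 6 libraries. By the labels without cre 1 its log2 fold change was 1.75. The part of these markers in the level of *Grb10* in cre 1 was not tested.

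*Cobl* encodes cordon-bleu, an actin nucleator, lies beyond *Grb10* on the same strand (12236608 to 12464960) and has been reported as maternally expressed in the yolk sac. It was at 0.251, 0.832 and 1.39 CPM in control 1, 2 and 3, and at 2.01, 1.88 and 0.497 CPM in cre 1, 2 and 3. Here the library labelled control 3 was the highest control and the library labelled cre 3 the lowest cre, as they were for *Gfap*. The log2 fold change of *Cobl* was 0.82 by the labels (SE 0.66, adjusted p = 1.00) and 1.83 in the 4 libraries (SE 0.51, adjusted p = 0.226). These values rest on 8 to 71 counts per library, and leaving out 1 library moved them between 0.40 (without control 1) and 1.41 (without control 3) by the labels and between 1.22 (without control 1) and 2.92 (without control 2) in the 4 libraries. The part of the astrocyte markers, whose sum was lowest in control 1 and 2 and 690 CPM in the library labelled cre 3, was not tested. *Ddc*, the decarboxylase that makes dopamine and serotonin, lies on the other side of *Grb10* and was at 0.314, 0.535 and 0.679 CPM in control 1, 2 and 3, beside 0.593, 0.239 and 1.12 CPM in cre 1, 2 and 3. Its groups overlapped in both comparisons.

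The promoters of *Grb10* and *Cobl* are shown because these neighbours had the largest fold changes, and those of *Mest* and *Nap1l5* because these were highly transcribed genes with a match to the ZFP57 motif. Each line gives the 250 bases before the RefSeq transcription start on GRCm38.p6, 5′ to 3′ on the gene's strand, with CpG dinucleotides, the sites of DNA methylation, in capitals. Where a gene had several RefSeq starts, the window with the most CpGs is shown.
Grb10: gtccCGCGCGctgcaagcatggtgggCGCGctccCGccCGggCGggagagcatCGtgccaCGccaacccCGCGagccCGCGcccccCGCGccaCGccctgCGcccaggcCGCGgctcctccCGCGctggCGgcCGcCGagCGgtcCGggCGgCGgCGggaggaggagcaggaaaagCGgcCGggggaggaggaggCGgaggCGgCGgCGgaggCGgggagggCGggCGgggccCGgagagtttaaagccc
Cobl: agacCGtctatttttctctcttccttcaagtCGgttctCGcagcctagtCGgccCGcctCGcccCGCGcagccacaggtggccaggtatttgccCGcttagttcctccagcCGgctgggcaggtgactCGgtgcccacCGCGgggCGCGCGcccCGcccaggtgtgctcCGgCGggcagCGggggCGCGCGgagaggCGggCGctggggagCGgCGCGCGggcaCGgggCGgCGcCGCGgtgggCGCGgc
Mest: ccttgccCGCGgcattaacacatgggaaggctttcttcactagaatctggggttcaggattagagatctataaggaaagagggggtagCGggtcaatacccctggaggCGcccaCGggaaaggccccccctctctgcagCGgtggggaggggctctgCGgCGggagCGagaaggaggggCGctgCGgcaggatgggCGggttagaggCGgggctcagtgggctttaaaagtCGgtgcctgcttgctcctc
Nap1l5: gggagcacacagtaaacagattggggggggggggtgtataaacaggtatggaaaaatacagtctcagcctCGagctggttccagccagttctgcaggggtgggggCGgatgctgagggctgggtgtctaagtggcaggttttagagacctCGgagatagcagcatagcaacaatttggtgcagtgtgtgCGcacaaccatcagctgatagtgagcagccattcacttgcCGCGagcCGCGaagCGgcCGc
The windows are chr11:12037421-12037670 (minus strand) for *Grb10*, chr11:12464961-12465210 (minus strand) for *Cobl*, chr6:30737800-30738049 (plus strand) for *Mest* and chr6:58907127-58907376 (minus strand) for *Nap1l5*. The last lies inside *Herc3*. *Grb10* and *Cobl* had 40 and 36 CpGs, *Mest* 14 and *Nap1l5* 10, against a median of 6 over all 32851 RefSeq windows of that length. Other starts had fewer or equal numbers, with 8 CpGs for a second *Grb10* window, 0 for a second *Cobl* window and 14 and 7 for those of *Mest*. The hexamer TGCCGC, which ZFP57 binds when it is methylated, was searched on both strands without overlap between matches. It occurred 2 times in the *Mest* window shown and not in the one with 7 CpGs. It occurred 1 time in the *Nap1l5* window and not in those shown for *Grb10* and *Cobl*. At least 1 match was present in 8.68% of all windows and in 10 of the 48 windows of the 33 imprinted genes that could be matched to the RefSeq table (20.8%). The hexamer holds a CpG, and the windows of these genes had a median of 12.5 CpGs, beside 6 over all windows. The part of CpG number in these shares was not tested. Some of these genes had several windows, such as the overlapping *Mest* windows from 30737800 and 30737803, which both had matches. A match is not a measured binding site.

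On proximal chromosome 6, the paternally expressed genes *Peg10* and *Sgce* share a promoter region, and flanking genes such as *Pon2*, *Pon3*, *Ppp1r9a* and *Asb4* have been reported as maternally expressed in placenta. *Pon2* (chromosome 6, 5264147 to 5298455) was at 108, 111 and 94.9 CPM in control 1, 2 and 3 and at 130, 129 and 126 CPM in cre 1, 2 and 3. All cre libraries were above all control libraries, and the library labelled control 3 was the lowest. The log2 fold change of *Pon2* was 0.29 (SE 0.08, adjusted p = 0.787) by the labels and 0.24 (SE 0.07, adjusted p = 0.277) in the 4 libraries. *Pon2* had the lowest unadjusted p of the 35 by the labels, 0.00525.

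*Peg10* showed another pattern, with 1 library apart. It was at 513, 312 and 276 CPM in control 1, 2 and 3 and at 281, 336 and 243 CPM in cre 1, 2 and 3. Control 1 was 1.53 times the next highest library, and the other 5 overlapped between the labels. *Sgce*, the epsilon-sarcoglycan gene that shares its promoter region, was likewise highest in control 1, with 33.7 CPM against 21.4 to 24.3 CPM elsewhere. *Casd1* (a sialic acid acetyltransferase, 34.1 to 44.4 CPM) and *Ppp1r9a* (neurabin, 91.7 to 112 CPM) did not have control 1 apart. *Pon3* was at 0.503 to 0.802 CPM and *Asb4* at 0.273 to 0.797 CPM.

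**Figure D3:**
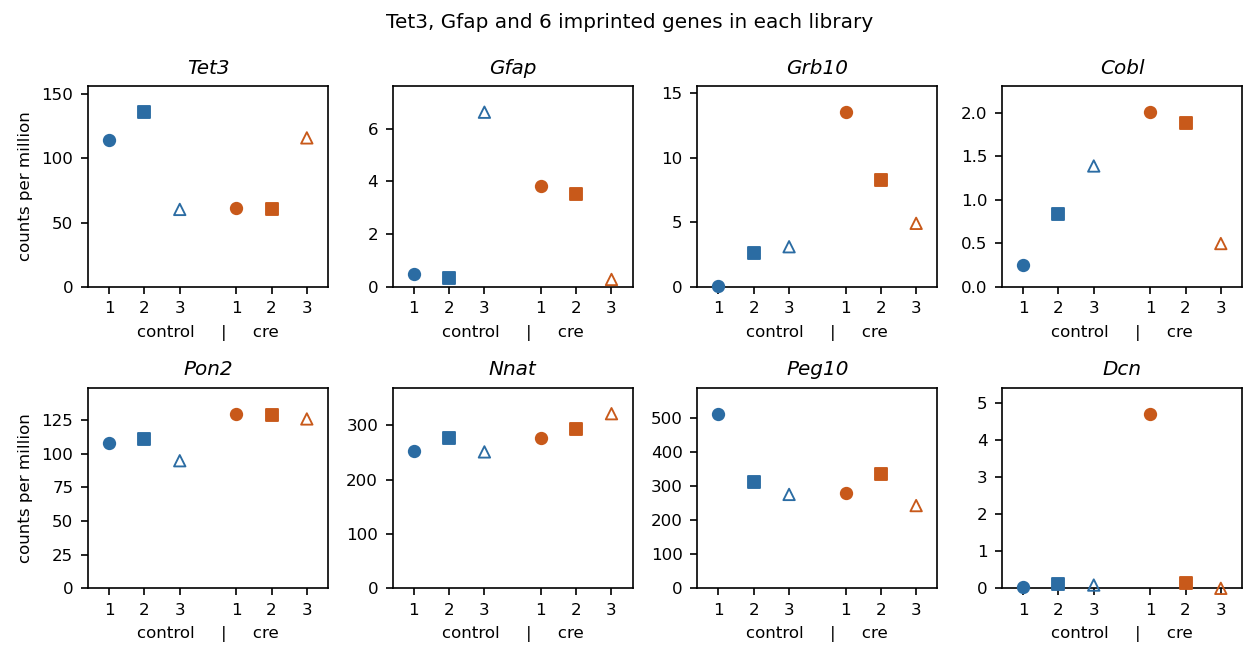
CPM of *Tet3*, *Gfap* and 6 imprinted genes in each library (linear axes from 0, control libraries blue, cre libraries orange, open triangles for those labelled control 3 and cre 3). *Grb10*, *Pon2* and *Nnat* are higher in every cre library, *Cobl* follows *Gfap* in the libraries labelled control 3 and cre 3, *Peg10* stands apart in control 1 (513 CPM) and *Dcn* in cre 1 (4.72 CPM).

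Distal chromosome 2 and chromosomes 6, 11, 15 and 17 hold pairs in which one imprinted gene lies inside, or runs antisense to, another. *Nnat* lies within an intron of *Blcap*, whose transcripts are known for A-to-I editing. *Nnat* was at 252, 277 and 251 CPM in control 1, 2 and 3 and at 278, 294 and 322 CPM in cre 1, 2 and 3. *Blcap* was at 50.6, 56.0 and 51.4 CPM in the control libraries and at 63.1, 57.7 and 57.9 CPM in the cre libraries. In both genes the lowest cre library was only just above the highest control library. The log2 fold change of *Nnat* was 0.20 (SE 0.08, adjusted p = 0.974) by the labels and 0.11 (SE 0.08, adjusted p = 0.727) in the 4 libraries. That of *Blcap* was 0.18 (SE 0.07, adjusted p = 0.976) and 0.18 (SE 0.09, adjusted p = 0.539). Per kilobase *Nnat* was 7.32 to 9.24 times *Blcap*.

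*Mcts2*, an intronless copy of a translation factor gene within *H13*, was at 15.4, 14.2 and 13.3 CPM in control 1, 2 and 3 and at 14.2, 13.4 and 14.2 CPM in cre 1, 2 and 3. *H13*, which encodes signal peptide peptidase, was at 98.4, 72.3 and 64.1 CPM in the control libraries and at 76.0, 78.3 and 74.4 CPM in the cre libraries, with control 1 the highest and control 3 the lowest. *Mcts2* was 1.53 to 2.02 times *H13* per kilobase, and the lowest ratio was in control 1.

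*Nap1l5*, within *Herc3*, was at 95.1, 101 and 120 CPM in control 1, 2 and 3 and at 124, 105 and 111 CPM in cre 1, 2 and 3. The groups overlapped by the labels and not in the 4 libraries, with log2 fold changes of 0.11 (SE 0.10, adjusted p = 1.00) and 0.23 (SE 0.10, adjusted p = 0.462). *Herc3*, a ubiquitin ligase gene, was at 27.6, 26.9 and 30.2 CPM in the control libraries and 24.9, 30.3 and 27.6 CPM in the cre libraries. The ratio of *Nap1l5* to *Herc3* per kilobase was 24.7 in cre 1 and 17.1 to 20.0 in the other 5 libraries, the highest ratios of the 6 pairs.

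*Peg13*, a noncoding RNA within the *Trappc9* gene on chromosome 15 (72805600 to 72810324, minus strand), was at 46.7, 51.8 and 54.7 CPM in control 1, 2 and 3 and at 57.7, 55.5 and 51.0 CPM in cre 1, 2 and 3. The libraries labelled control 3 and cre 3 again lay nearer to the opposite label. Its log2 fold change was 0.10 (SE 0.08, adjusted p = 1.00) by the labels and 0.20 (SE 0.08, adjusted p = 0.435) in the 4 libraries. *Trappc9*, a subunit of a vesicle trafficking complex, was at 45.5, 50.2 and 43.3 CPM in the control libraries and at 48.5, 61.6 and 48.7 CPM in the cre libraries. *Peg13* was 1.51 to 2.12 times *Trappc9* per kilobase. The neighbouring *Ago2*, the argonaute that cleaves target RNA, ranged from 143 to 171 CPM.

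*Igf2r* encodes the receptor that clears IGF2 and is expressed from the maternal copy in most tissues, while the antisense RNA *Airn* from the paternal copy silences it there. In neurons *Igf2r* is known to be expressed from both copies. *Igf2r* (chromosome 17, 12682406 to 12769664) was at 94.5, 77.6 and 60.9 CPM in control 1, 2 and 3 and at 66.9, 71.1 and 63.5 CPM in cre 1, 2 and 3. The library labelled control 3 was the lowest of all 6, so the groups overlapped by the labels, whereas control 1 and 2 were above cre 1 and 2. The log2 fold change of *Igf2r* was -0.21 (SE 0.15, adjusted p = 1.00) by the labels and -0.32 (SE 0.11, adjusted p = 0.310) in the 4 libraries. Without control 1 it was -0.04 by the labels and -0.17 in the 4 libraries. *Airn* was at 1.23, 1.04 and 0.827 CPM in the control libraries and at 1.02, 1.30 and 0.777 CPM in the cre libraries, which was 0.0317 to 0.0472 of *Igf2r* per kilobase.

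*Zrsr1*, a splicing factor retrocopy within *Commd1*, was at 8.89, 9.60 and 8.57 CPM in control 1, 2 and 3 and at 9.32, 9.76 and 9.94 CPM in cre 1, 2 and 3. *Commd1*, a regulator of copper transport and NF-kB, was at 30.1, 24.3 and 31.5 CPM in the control libraries and at 29.1, 30.9 and 26.9 CPM in the cre libraries. *Zrsr1* was 0.36 to 0.522 of *Commd1* per kilobase. In 4 of the 6 pairs the paternally expressed gene was thus the more abundant per kilobase in every library, and no pair's ratio varied by more than 1.49-fold between libraries. *Mcts2* and *Peg13* lie on the same strand as their hosts, and the part of unspliced host RNA in their ratios was not tested.

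**Figure D4:**
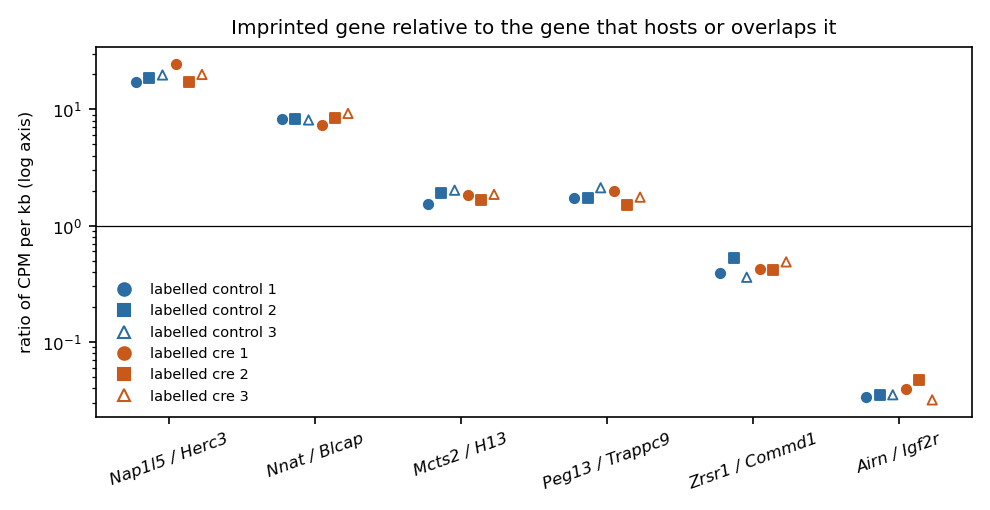
Ratio of CPM per kilobase of the paternally expressed gene to that of the gene that hosts or overlaps it, in each library (log axis, line at a ratio of 1). *Nap1l5*, *Nnat*, *Mcts2* and *Peg13* exceed their partners in all 6 libraries, and *Zrsr1* and *Airn* lie below theirs.

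The remaining abundant genes differed little. *Mest* was at 927, 737 and 982 CPM in control 1, 2 and 3 and at 957, 864 and 889 CPM in cre 1, 2 and 3, and control 2 was the lowest. Its log2 fold change was 0.03 (SE 0.11, adjusted p = 1.00) by the labels and 0.13 (SE 0.12, adjusted p = 0.806) in the 4 libraries. *Copg2* was the steadiest gene of the 35, at 97.7, 90.6 and 90.1 CPM in the control libraries and 93.1, 94.2 and 93.7 CPM in the cre libraries, a coefficient of variation of 2.97%. *Gatm* was at 385, 340 and 312 CPM in control 1, 2 and 3 and at 378, 389 and 347 CPM in cre 1, 2 and 3. Its log2 fold change was 0.10 (SE 0.09, adjusted p = 1.00) by the labels and 0.08 (SE 0.09, adjusted p = 0.842) in the 4 libraries. *Inpp5f* was at 123, 113 and 111 CPM in the control libraries and 118, 116 and 111 CPM in the cre libraries.

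The zinc finger gene *Peg3* was at 99.8 to 135 CPM, and its neighbours *Usp29* and *Zim1* were at 2.46 to 4.26 and 4.71 to 6.85 CPM. *Plagl1*, a zinc finger transcription factor gene, was at 13.5 CPM in control 3 and 9.11 to 10.3 CPM elsewhere. *Phactr2*, beside it, was at 22.2 and 24.1 CPM in control 2 and 3 and 15.9 to 17.9 CPM elsewhere. *Impact*, whose product restrains the kinase GCN2, was at 53.5 to 65.8 CPM, and *Htra3*, a secreted protease gene, at 4.59 CPM in control 1 and 7.63 to 11.1 CPM elsewhere.

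*Dcn*, which encodes the matrix proteoglycan decorin, is singled out because its values stood apart when they were seen. It had 1, 4 and 3 counts in control 1, 2 and 3 and 167, 4 and 0 counts in cre 1, 2 and 3. Cre 1 was thus at 4.72 CPM and every other library at or under 0.137 CPM, and the 0 counts in cre 3 allow at most 0.0944 CPM. *Col1a1*, *Col1a2* and *Col3a1*, collagen genes of the mesenchymal markers, were at 5.40, 5.51 and 9.21 CPM in cre 1 and at most 0.65, 0.126 and 0.354 CPM in the other libraries. Their part in the level of *Dcn* was not tested.

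Variation between libraries was near that of all genes tested, and somewhat wider among genes of at least 10 CPM. The median coefficient of variation over the 6 libraries was 11.9% for the 35 imprinted genes and 11% for all genes tested, and 9.54% against 7.52% among genes of at least 10 CPM. It was over 25% in 6 of the 35 (17.1%), beside 20.9% of all genes. The library labelled control 3 was the lowest in 13 of the 35, beside 22.4% of all genes, and control 1 was the lowest in 11, beside 21% of all genes, and the highest in 7, beside 20.7%.

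By class, 1 of the 13 tested paternally expressed genes had an unadjusted p under 0.05 in each comparison, *Nnat* by the labels and *Peg13* in the 4 libraries, both higher in cre. Over all genes the share was 5.0% by the labels and 11.2% in the 4 libraries. The median log2 fold change of this class was -0.002 by the labels and 0.03 in the 4 libraries. Of the 8 tested genes reported as maternal mainly in the placenta or yolk sac, 1 had such a p by the labels and 2 in the 4 libraries (*Pon2*, then *Pon2* and *Cobl*), beside the same 5.0% and 11.2%, and their medians were 0.12 and 0.10. None of either class passed at an adjusted p under 0.05 by the quasi-likelihood test or DESeq2, and the exact and likelihood-ratio tests called *Cobl* in the 4 libraries.

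Genes that maintain imprints gave no call. None of the 16 tested of 18 passed the quasi-likelihood test in either comparison. Of all genes, 0% passed it by the labels and 0.459% in the 4 libraries. None of the 16 had an unadjusted p under 0.05, beside 5.0% of all genes by the labels and 11.2% in the 4 libraries. DESeq2, the exact test and the likelihood-ratio test called none of the 16 either, beside at most 3.75% of all genes. Their median log2 fold change was 0.003 by the labels and -0.02 in the 4 libraries. *Trim28*, the corepressor recruited by ZFP57, was at 445 to 501 CPM and *Dnmt1*, the maintenance methyltransferase, at 340 to 381 CPM. *Zfp57* itself was at 24.2 CPM in control 3 and at most 15.7 CPM elsewhere. *Tet1* and *Tet2*, the other members of the *Tet* family, were at 33.7 to 44.7 and 20.4 to 27.7 CPM.

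The imprinted genes of the 3 clusters left out above, of which 14 of 30 were tested, had 0 calls by the labels and 1 in the 4 libraries with the quasi-likelihood test (0% and 0.459% of all genes). The call was *Snrpn*, which encodes a spliceosome protein. DESeq2 called *Ampd3* by the labels, and *Ampd3* and *Snrpn* in the 4 libraries (0.414% and 2.80% of all genes). *Snrpn* was at 24.8 and 26.3 CPM in control 1 and 2 and at 42.6 and 46.8 CPM in cre 1 and 2. The library labelled control 3 was the highest of all, at 48.6 CPM, and the library labelled cre 3 lay between control 2 and cre 1. The groups thus overlapped by the labels. *Snrpn* had a log2 fold change of 0.81 in the 4 libraries (SE 0.09, adjusted p = 0.0288). Without control 1 it was not called. *Ampd3* (AMP deaminase) and *Ndn* (necdin) had an unadjusted p under 0.05 there, with log2 fold changes of 1.23 (adjusted p = 0.101) and 1.06 (adjusted p = 0.153), and were among the calls of the exact test.

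Among 26 relatives of the imprinted genes that are not imprinted, 20 were tested. The quasi-likelihood test gave 0 calls by the labels and 1 in the 4 libraries (0% and 0.459% of all genes). DESeq2 called *Grb14* and *Insr* by the labels and the exact test called *Grb14* (0.414% and 0.402% of all genes). In the 4 libraries DESeq2, the exact test and the likelihood-ratio test each called *Grb14* and *Igf1r* (2.80%, 3.75% and 3.66% of all genes). The gene called by the quasi-likelihood test was *Grb14*, a paralog of *Grb10* that also binds the insulin receptor, whose log2 fold change was -1.36 (SE 0.17, adjusted p = 0.0364), a call that was lost without control 1. *Grb14* was at 14.6, 12.8 and 7.27 CPM in control 1, 2 and 3 and at 5.99, 4.64 and 6.06 CPM in cre 1, 2 and 3, without overlap. By the labels its log2 fold change was -1.05 (SE 0.26, adjusted p = 0.745). In the 4 libraries 3 relatives with an unadjusted p under 0.05 were lower in cre, and 1 was higher, *Phactr1*. Over all genes 11.2% had such a p there. *Phactr1* was at 3.64 and 4.75 CPM in control 1 and 2 and at 6.27 and 7.3 CPM in cre 1 and 2. *Insr* and *Igf1r*, the insulin and IGF1 receptor genes, had log2 fold changes of -0.27 (adjusted p = 0.229) and -0.40 (adjusted p = 0.104) in the 4 libraries by the quasi-likelihood test, while DESeq2 and both other edgeR tests called *Igf1r* there. *Igf1r* was at 55.5, 58.9 and 39.7 CPM in control 1, 2 and 3 and at 43.6, 43.1 and 47.8 CPM in cre 1, 2 and 3. The library labelled control 3 was the lowest, so its groups overlapped by the labels. *Insr* was at 90.2 to 94.6 CPM in the control libraries and 72.1 to 78.3 CPM in the cre libraries. Its groups did not overlap by the labels (adjusted p = 0.689 by the quasi-likelihood test, called by DESeq2).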

How the data were processed

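Total RNA from neurosphere cultures had been made into stranded mRNA libraries and sequenced. The authors aligned the reads with Subread to GRCm38.p5 and deposited raw counts per gene of an Ensembl annotation, made with Rsubread. Tool versions and settings for strand, overlaps and multiply mapped reads are not given in the sources used here. All 6 columns of counts matched a sample by name, and libraries held 29660398 to 35405326 counts. Gene symbols came from a name table (345 of 49671 genes had none), and exon lengths and positions from a later GENCODE release on GRCm38.

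The members and the lists were chosen with earlier results of these data known. Genes were filtered with filterByExpr, scaled by TMM and tested with edgeR 4.0.16 (glmQLFit and glmQLFTest, R 4.3.3) on the label alone, with Benjamini-Hochberg adjustment over all genes tested. CPM are counts-per-million of the TMM-scaled library. The comparison was made by the labels and in the 4 libraries. Fold changes are given for genes with an unadjusted p under 0.05 in either comparison and for the 4 highest per kilobase. Values per library are given for these, the 10 highest, the paired genes and the *Grb10* locus. From the lists, up to 3 genes with an unadjusted p under 0.05 in the 4 libraries, or else the 2 highest, are named. *Phactr1* was added to these. Alternatives were DESeq2 1.42.0, edgeR's exact and likelihood-ratio tests, limma 3.58.1 voom, other scalings and filters, a replicate block and leaving out each library. Replicates differed by more than sampling noise, so none was counted as a duplicate.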

Additional observations from a re-analysis of the deposited data

How the results depend on the processing

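By the labels, the count of genes called was 0 by the quasi-likelihood test, 70 by DESeq2, 68 by the exact test, 51 by the likelihood-ratio test, 3 without a filter and 0 to 18 when 1 library was left out (18 without control 3). The count of imprinted genes called was 0 under every one of these. In the 4 libraries the count of genes called was 78, and it was 476 by DESeq2, 638 by the exact test, 622 by the likelihood-ratio test, 1325 without a filter and 59 to 297 when 1 library was left out (246 without control 2, 297 without cre 2). The count of imprinted genes called there was 0. It was 2 by the exact test (*Grb10* and *Cobl*), 1 by the likelihood-ratio test (*Cobl*) and 5 without a filter (*Peg10*, *Grb10*, *Cobl*, *Igf2r* and *Dcn*). *Dcn* failed the filter of the main fits and, without cre 2, passed it only through cre 1, the lone cre library. With 1 control or cre library left, the lone library was assumed to vary like the others. The cause of these differences was not tested. Other scalings, voom and a minimum of 1 CPM left every count within 1.5 times.

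Of 290 alternative values for 10 imprinted genes, 279 kept direction and call, 7 became called and 4 reversed. When 1 library was left out, the log2 fold change of *Mest* by the labels ran from -0.080 to 0.116 (below 0 without control 2, and -0.009 without cre 1), that of *Mest* in the 4 libraries from -0.034 to 0.303 and that of *Gatm* in the 4 libraries from -0.011 to 0.171 (both below 0 without control 2). Libraries that share a replicate number did not deviate together (correlations of -0.0893, 0.00783 and -0.0169 by the labels and -0.0641 in the 4 libraries), so the numbers were not taken as pairs. With a replicate block, 0 genes were called by the labels and 169 in the 4 libraries, and 0 imprinted genes in either. Depth limited *Cobl*, *Airn*, *Pon3*, *Ddc* and *Asb4* most among the tested genes, at 225, 201, 130, 115 and 95 counts over the 6 libraries.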

Other observations

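A few genes of the lists had 1 library apart. *H19*, a noncoding RNA of the Igf2 cluster, was at 4.04 CPM in cre 1 and at most 0.236 CPM elsewhere, the library in which *Dcn* and the collagen genes were high. *Ndn*, of the Prader-Willi cluster, was at 0.118 CPM in the library labelled control 3 and 28.8 to 92.0 CPM in the other 5.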
